A study of Homo sapiens with 6 samples.

Results

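The MYC, MAX and MXD network was followed in KYSE510, an established line of oesophageal squamous cell carcinoma, after knockdown of the gene that the labels name RNH1. Its 10 members were MYC, MYCN, MYCL, MAX, MXD1, MXD3, MXD4, MXI1, MNT and MGA, taken by gene symbol from 62700 gene IDs in the count table. All 10 had an ID, and all 10 passed the filter on low counts. RNA sequencing covered 3 libraries of cells with an shRNA against RNH1 (shRNH1; genotype RNH1 knockdown) and 3 of cells with a control shRNA (shControl; genotype WT). All cells grew in medium with serum and were lysed in Trizol. The sources used here do not say how many hairpins or clones were used, or how long after knockdown the cells were taken. The labels name biological replicates but not how the cultures were kept apart, and each p-value therefore refers only to the spread among these 6 libraries, which may be technical. In bulk RNA, fewer cells of a kind and less RNA per cell cannot be told apart.

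The proteins of this network are basic helix-loop-helix leucine zipper factors that bind DNA as pairs. MYC, MYCN and MYCL pair with MAX on the E-box CACGTG and activate genes of ribosome production, nucleotide synthesis and growth. MXD1, MXI1, MXD3, MXD4 and MNT pair with the same MAX and repress through SIN3 and histone deacetylases, and MGA brings MAX into a Polycomb complex. MYC lies in a chromosome region that is often gained in squamous tumours of the oesophagus.

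Library totals were 31394687 to 33421217 counts in shRNH1 and 40225486 to 41103220 counts in shControl. RNASEH1, the enzyme that removes the RNA strand of R-loops, was at 7.40, 7.03 and 7.03 CPM (counts scaled to a common library size with TMM factors) in shRNH1 and at 34.9, 32.5 and 27.6 CPM in shControl. It stood at 22.6% of the control level (95% interval 19.2% to 26.7%; edgeR adjusted p = 1.61e-13). The ribonuclease inhibitor gene that has RNH1 as its approved symbol averaged 478 ± 45.5 CPM in shRNH1 and 546 ± 97.4 CPM in shControl (SD, n = 3 each). Its log2 fold change of -0.19 did not pass edgeR's test (adjusted p = 0.221). Of 9 tested squamous markers 4 rose and 3 fell (77.8% called, against 27.6% of all genes tested), and their list summed to 360 to 376 CPM in shRNH1 and 297 to 346 CPM in shControl. The 3 that fell were all keratin genes, among them KRT5 (12.3 CPM in shRNH1, 30.9 CPM in shControl) and KRT14 (5.25 CPM in shRNH1, 13.8 CPM in shControl). The 4 that rose held the keratin gene KRT13 (149 CPM in shRNH1, 60.9 CPM in shControl). They also held CDH1 (log2 fold change 0.32) and EPCAM (0.44), which are general epithelial genes. TP63 averaged 52.5 CPM in shRNH1 and 53.3 CPM in shControl, and IVL was listed at 0. Neuroendocrine markers summed to 3.58 to 4.84 CPM in shRNH1 and 4.26 to 4.75 CPM in shControl, with NEUROD1 listed at 0. Leukocyte markers summed to 7.18 to 9.61 CPM in shRNH1 and 5.91 to 7.38 CPM in shControl, with MS4A1 at 0, and each of these lists had 0 of 2 tested genes past the threshold by edgeR, also at an unadjusted p below 0.05. In the neuroendocrine list DESeq2 and limma-voom called 0 too, whereas in the leukocyte list DESeq2 called 1 gene higher, limma-voom 0, and edgeR with no filter on low counts 2. Endothelial markers summed to 20.8 to 23.4 CPM in shRNH1 and 21.1 to 22.7 CPM in shControl, with 2 of 4 tested higher and KDR at 0. Of these 2, PECAM1 lost its call by DESeq2, with the offset for expression level, and without shRNH1 replicate 1, shControl replicate 2 or shControl replicate 3, which left 1 higher; with the offset 1 other marker was lower. The fibroblast list, with 2 genes higher and 1 lower of 3 tested, summed to 504 to 564 CPM in shRNH1, against 293 to 331 CPM in shControl. That sum came mostly from FBLN1 and COL1A1. Of the untested genes of the list, DCN and COL1A2 were listed at 0 in all 6 libraries. LUM had 16, 0 and 9 counts in shRNH1 and 2, 0 and 0 in shControl, and PDGFRA had 0 in shRNH1 and 1, 0 and 0 in shControl. The part of these marker changes and of the lower depth of shRNH1 in the results was not tested.

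MYC and its partner MAX fell in shRNH1, whereas the MXD genes MXD1, MXI1, MXD3 and MXD4, which code for repressor partners of MAX, rose. MYCN rose from a level of a few counts per library. MYCL, MGA and MNT, the last a further repressor partner of MAX, did not pass the test. In edgeR's quasi-likelihood fit, with p-values adjusted by Benjamini-Hochberg over 19682 genes, 7 of 10 members passed at 0.05, against 27.6% of all genes tested. Among them 5 were higher, against 15.3% of all genes, and 2 were lower, against 12.3%. CPM of the groups did not overlap for 8 members, 6 higher and 2 lower, against 40.0% of all genes. The median log2 fold change of the 10 members was 0.44, beside 0.016 over all genes tested.

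**Figure D1:**
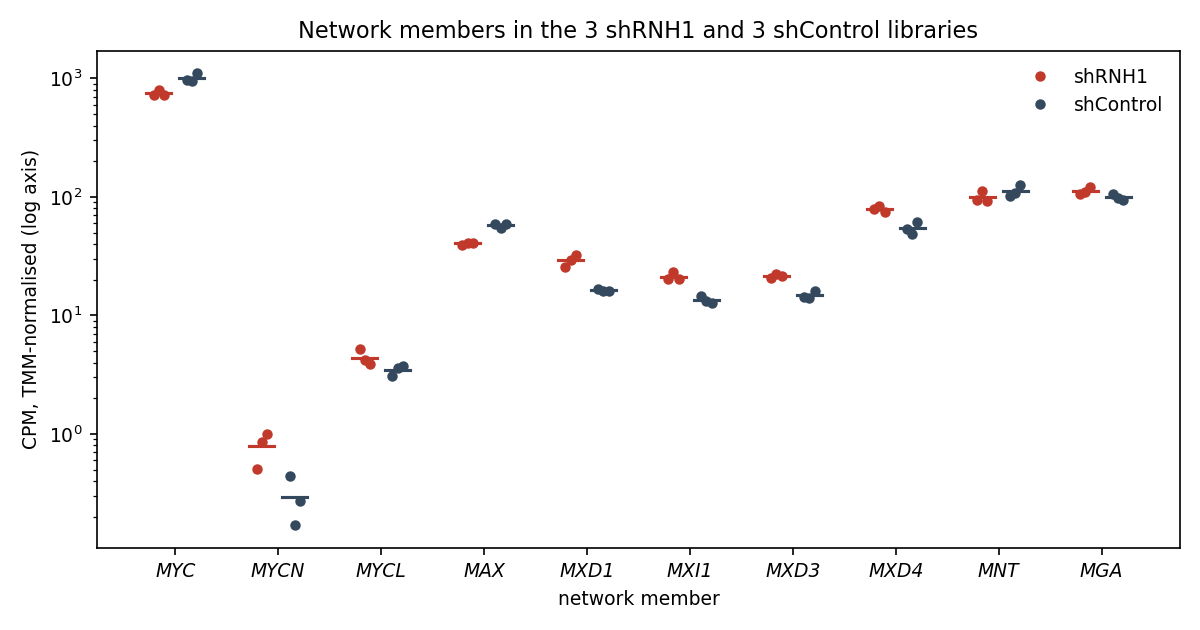
TMM-normalised CPM on a log axis for each network member in the 3 shRNH1 (red) and 3 shControl (dark) libraries; each point is a library and each bar a group mean. MYC lies lower in shRNH1 (752 CPM) than in shControl (1008 CPM), as does MAX, while the 4 MXD genes lie higher in shRNH1 with no overlap between groups.

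To show where the network could bind, the E-box CACGTG was searched in the 250 bases before each RefSeq start (GRCh38.p14). The motif is a palindrome and reads the same on both strands. Promoters were found for 9 of the 10 members, all but MYC, in 14 windows. Of these windows, 10 overlap an exon of some annotated transcript in GENCODE, so they are partly transcribed where other starts are used. Of these 9, 2 held an E-box, beside 7.73% of all genes with a promoter in the table. These were MXD4, 238 bases before its RefSeq start on chromosome 4, and MNT, 193 bases before its RefSeq start on chromosome 17. Measured from the outermost start of the gene in GENCODE, the same E-boxes lie 53 and 135 bases upstream. They are shown with 12 bases on each side, on the gene's strand and with the E-box in capitals.
MXD4, chr4:2262330-2262359, minus strand: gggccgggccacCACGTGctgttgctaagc
MNT, chr17:2401236-2401265, minus strand: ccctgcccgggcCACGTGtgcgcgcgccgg
A match of these letters is a description of the window, not a binding site.

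Among genes that MYC is known to activate, 15 of 47 with a promoter in the table held an E-box (31.9%). The same windows of the 7 that passed the expression test are given so that the letters can be read beside the changes described further on. The first 5 belong to 4 genes that fell (HK2 has a pair of E-boxes), and the last 3 to genes that rose.
SRM, chr1:11060200-11060229, minus strand: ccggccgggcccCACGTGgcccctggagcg
IMP4, chr2:130342682-130342711, plus strand: gcggtcctaagtCACGTGtgacattctgta
UTP20, chr12:101280083-101280104, plus strand: cttttttccgtcCACGTGaccc
HK2, chr2:74834964-74834993, plus strand: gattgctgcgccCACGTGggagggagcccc
HK2, chr2:74835009-74835038, plus strand: ttccggcgagagCACGTGgagagaatcgtg
DUSP2, chr2:96145536-96145565, minus strand: cagactgcgcccCACGTGaggggcgggggc
DCTPP1, chr16:30429801-30429821, minus strand: ggagggttcctcCACGTGgtc
AIMP2, chr7:6009478-6009507, plus strand: ccgggcgctggcCACGTGcaggtaggagcg
The windows of UTP20 and DCTPP1 are shorter because the E-box lies within 10 and 9 bases of the start.

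MYC (ENSG00000136997; GRCh38 chromosome 8, 127735434 to 127741434, plus strand), the activator of the network, was the most abundant member. It had 24696, 28320 and 23812 counts in shRNH1 and 38071, 38961 and 40675 counts in shControl, which is 728, 806 and 722 CPM in shRNH1 against 978, 942.5 and 1104 CPM in shControl. Each shRNH1 library lay below each shControl library. MYC fell to 74.6% of the control level (95% interval 64.7% to 86.1%), a log2 fold change of -0.42 (SE 0.1002; edgeR adjusted p = 0.00208). With 3 libraries a group, an exact permutation test (two-sided) cannot go below p = 0.1, which is what MYC gave. With an offset that removes the trend of fold change on expression level, MYC was at -0.23 (edgeR adjusted p = 0.0859) and missed the threshold. It passed in the other 15 settings tried, between -0.48 and -0.31.

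MYCN (ENSG00000134323; chromosome 2, 15940564 to 15947007, plus strand), the family member best known from neuroblastoma, had 17, 30 and 33 counts in shRNH1 and 17, 7 and 10 counts in shControl. In CPM it was at 0.501, 0.854 and 1.00 in shRNH1 and at 0.437, 0.169 and 0.271 in shControl, so counts were few in all libraries, and the lowest shRNH1 library lay just above the highest shControl library. Its log2 fold change of 1.42 (SE 0.453; edgeR adjusted p = 0.0197) rested on these counts. The call was lost without shRNH1 replicate 2 (1.36, edgeR adjusted p = 0.0586), without shRNH1 replicate 3 (1.21, adjusted p = 0.107) and without shControl replicate 2 (1.13, adjusted p = 0.0966). Its antisense gene MYCNOS, with 98 exon bases in common, had 21 to 59 counts in shRNH1 and 22 to 35 in shControl, and strand use in counting is not stated.

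MYCL (ENSG00000116990; chromosome 1, 39895426 to 39902256, minus strand), first found in small cell lung cancer, was at 5.16, 4.21 and 3.85 CPM in shRNH1 and 3.06, 3.63 and 3.72 CPM in shControl. The shRNH1 libraries lay above the shControl ones by a narrow margin, and the log2 fold change of 0.35 (95% interval -0.02 to 0.71) did not pass (edgeR adjusted p = 0.154).

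MAX (ENSG00000125952; chromosome 14, 65006174 to 65102695, minus strand), the shared DNA-binding partner of the network, was at 39.1, 41.1 and 41.2 CPM in shRNH1 and at 59.6, 54.9 and 59.1 CPM in shControl. The libraries within each group lay close together and the groups were well apart. MAX fell to 69.9% of the control level (95% interval 61.4% to 79.7%), a log2 fold change of -0.52 (SE 0.0915; edgeR adjusted p = 9.86e-05). It passed in all 16 alternative settings, between -0.56 and -0.40. The antisense gene ENSG00000259118, which has 184 exon bases in common with MAX, had 25 to 37 counts in shRNH1 and 30 to 55 in shControl, while MAX had 1325 to 1444 counts in shRNH1 and 2178 to 2319 in shControl.

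Among the repressors, MXD1 (ENSG00000059728; chromosome 2, 69897688 to 69942945, plus strand), which is known to rise when cells leave the cycle and differentiate, had the largest log2 fold change. It was at 25.5, 29.3 and 32.6 CPM in shRNH1 and at 16.7, 15.9 and 16.2 CPM in shControl. This was a 1.79-fold rise (95% interval 154% to 208% of the control level), a log2 fold change of 0.84 (SE 0.107; edgeR adjusted p = 9.72e-07). The neighbouring gene SNRNP27, which has 237 annotated exon bases in common with MXD1 on the same strand, was lower in shRNH1 (-0.32; edgeR adjusted p = 0.0248), so it moved the other way.

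MXI1 (ENSG00000119950; chromosome 10, 110207605 to 110287365, plus strand), also called MXD2, was at 20.4, 23.2 and 20.3 CPM in shRNH1 and at 14.5, 13.2 and 12.7 CPM in shControl. The lowest shRNH1 library exceeded the highest shControl library, and the log2 fold change was 0.66 (SE 0.108; edgeR adjusted p = 3.72e-05).

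MXD4 (ENSG00000123933; chromosome 4, 2247432 to 2262294, minus strand), the most abundant of the 4 MXD genes, was at 78.6, 84.1 and 75.1 CPM in shRNH1 and at 54.1, 49.0 and 61.5 CPM in shControl. It rose by a log2 fold change of 0.53 (SE 0.0975; edgeR adjusted p = 1.48e-04), with every shRNH1 library above every shControl library.

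MXD3 (ENSG00000213347; chromosome 5, 177301461 to 177312757, minus strand), which in contrast to the other MXD genes is known from proliferating cells, was at 20.8, 22.6 and 21.4 CPM in shRNH1 and at 14.3, 13.9 and 15.98 CPM in shControl. Its log2 fold change was 0.55 (SE 0.106; edgeR adjusted p = 2.45e-04). Annotated MXD3 exons overlap those of PRELID1 on the opposite strand by 1158 bases and those of RAB24 on the same strand by 926 bases. PRELID1 was lower in shRNH1 (119 CPM, against 145.5 CPM in shControl; -0.29, edgeR adjusted p = 0.0239), and RAB24, at -0.46, did not pass (edgeR adjusted p = 0.0815). MXD1, MXI1, MXD3 and MXD4 each passed in all 16 alternative settings, and the lowest log2 fold change among them was 0.45.

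MNT (ENSG00000070444; chromosome 17, 2384060 to 2401118, minus strand), the repressor that most cells make at all times, was at 94.9, 112 and 92.6 CPM in shRNH1 and at 102, 108 and 127 CPM in shControl. The groups overlapped, and the log2 fold change of -0.17 (95% interval -0.38 to 0.04) did not pass (edgeR adjusted p = 0.230). MGA (ENSG00000174197; chromosome 15, 41621224 to 41773081, plus strand), the largest protein of the network, was at 106, 109 and 121 CPM in shRNH1 and at 107, 97.1 and 93.4 CPM in shControl. Its groups overlapped too, at a log2 fold change of 0.18 (95% interval -0.01 to 0.37; edgeR adjusted p = 0.171). MGA did pass with library size alone (0.29, edgeR adjusted p = 0.0237), and at 0.25 it passed with the offset for level as well (edgeR adjusted p = 0.0474).

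**Figure D2:**
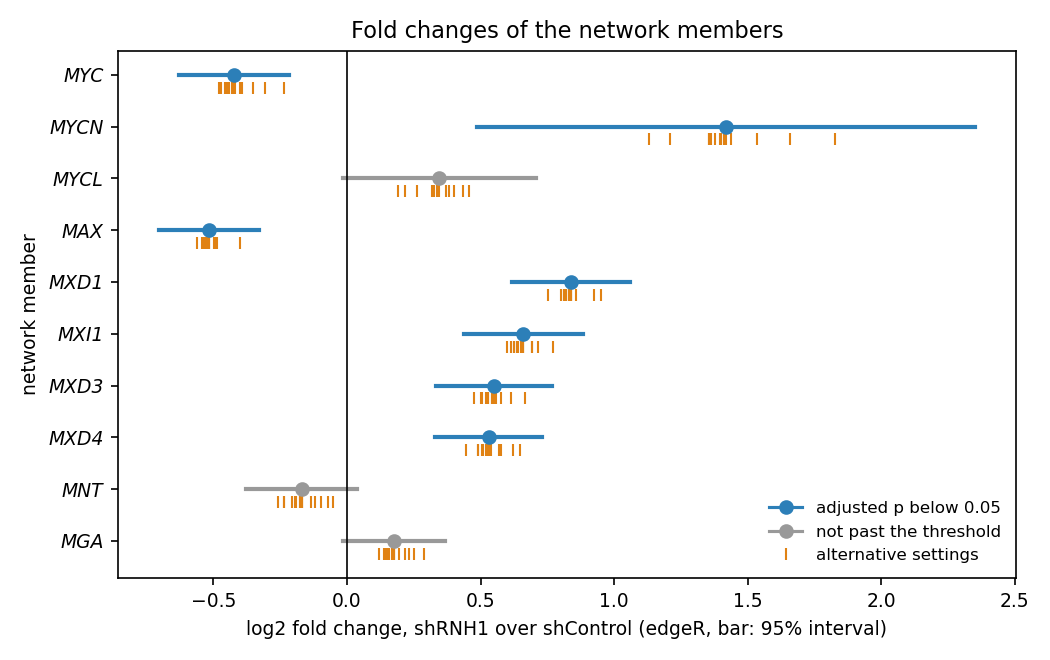
Log2 fold change of shRNH1 over shControl for each member by edgeR, with 95% interval (bar) and the values under the alternative settings (orange ticks); blue members passed the threshold and grey ones did not. MYC (-0.42) and MAX (-0.52) lie left of 0, the MXD genes (0.53 to 0.84) lie right of it, and no tick of any member lies on the other side of 0 from its point.

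Levels can be compared between members only per length, as CPM per kb of annotated exon. In shRNH1 MYC was at 251 ± 15.7 CPM per kb, followed by MNT (11.4 ± 1.22), MXD4 (11.2 ± 0.639), MAX (9.13 ± 0.272) and MGA (6.34 ± 0.443; SD, n = 3 each). The order in shControl was MYC (336 ± 28.3), MAX (13.1 ± 0.582), MNT (12.9 ± 1.498), MXD4 (7.77 ± 0.889) and MGA (5.61 ± 0.385). MNT and MXD4 in shRNH1, and MAX and MNT in shControl, did not differ beyond their spread. MXI1 (4.62), MXD1 (4.58) and MXD3 (4.19) lay close together in shRNH1, and likewise in shControl (2.92, 2.56 and 2.86). MYCL (0.871 CPM per kb in shRNH1 and 0.685 in shControl) and MYCN (0.302 in shRNH1 and 0.112 in shControl) were the lowest. Exon lengths from the smaller basic transcript set raised MNT and MXD4, to 20.0 and 19.6 CPM per kb in shRNH1 and 22.5 and 13.5 in shControl, which placed MNT above MAX in both groups (MAX 9.86 in shRNH1 and 14.1 in shControl). With those lengths MXD3, at 6.56 CPM per kb in shRNH1 and 4.48 in shControl, lay above MXI1 (5.25 in shRNH1 and 3.32 in shControl) and MXD1 (5.18 in shRNH1 and 2.897 in shControl).

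Summed by role, the 3 MYC genes were at 244, 270 and 242 CPM per kb in shRNH1 and at 327, 315 and 369 in shControl. The 4 MXD genes summed to 23.6, 25.9 and 24.3 CPM per kb in shRNH1 and to 16.2, 15.0 and 17.1 in shControl. This second sum holds only repressors that passed as higher and leaves out MNT. MNT was at 10.9, 12.8 and 10.6 CPM per kb in shRNH1 and at 11.7, 12.4 and 14.6 in shControl. No ratio with MNT included was computed. The ratio of the first sum to the second was 10.3, 10.4 and 9.93 in shRNH1 and 20.1, 21.0 and 21.5 in shControl. Each sum already lay apart between the groups, in opposite directions. The ratio therefore had to lie apart as well and is no further evidence. With basic exon lengths the ratio was 6.89 ± 0.134 in shRNH1 and 13.9 ± 0.366 in shControl (SD, n = 3 each). The summed MYC genes lay above the summed MXD genes in every library. The ratio of the MYC sum to MAX was 27.6 ± 1.55 in shRNH1 and 25.8 ± 1.70 in shControl (SD, n = 3 each), and the groups overlapped. These are mRNA levels, and protein was not measured.

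**Figure D3:**
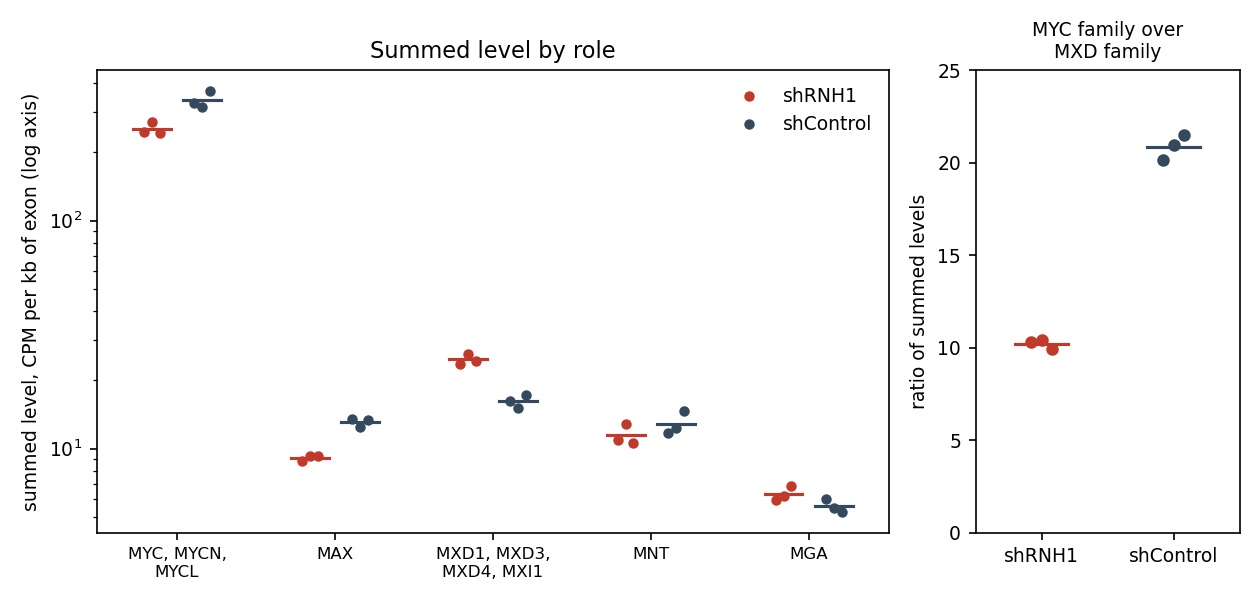
Left, level summed by role in CPM per kb of exon (log axis) in each library; right, ratio of the summed MYC family to the summed MXD family; bars are group means, shRNH1 in red and shControl dark. The ratio, which leaves MNT out, lies near 10.2 in the 3 shRNH1 libraries and near 20.9 in the 3 shControl libraries. This gap follows from the sums at left and adds no evidence.

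Genes with the most similar profile were found by the root mean square difference of log2 CPM, centred over the 6 libraries. For MYC they were DYRK2 (0.0129), WNK2 (0.0224) and KLHL21 (0.0283). For MAX they were CDC25A (0.0318), a phosphatase of the cell cycle, TASOR2 (0.0337) and POLR2J (0.0338), an RNA polymerase subunit. For MXD1 they were ENSG00000284954 (0.0375), ARL6IP1 (0.0777) and ATF7IP2 (0.0799). These 9 genes were picked for likeness among all genes tested, so their own changes are no further evidence.

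The related branch around MLX, a MAX-like partner of the glucose-sensing factors MLXIP and MLXIPL, was split in the same data. MLX itself fell (-0.53; edgeR adjusted p = 6.60e-05) while MLXIPL rose (1.36; edgeR adjusted p = 2.65e-07), and MLXIP at -0.11 did not pass. TXNIP and ARRDC4, targets of that branch, rose by log2 fold changes of 2.38 and 1.51.

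Genes that MYC activates fell more often than they rose. Of 57 listed MYC-activated genes, 27 fell, 5 rose and 25 did not pass (56.1% called, against 27.6% of all genes), with a median log2 fold change of -0.30 beside 0.016 over all genes. MYBBP1A (-0.75), a nucleolar MYB-binding protein, PUS1 (-0.74), a pseudouridine synthase, and PPRC1 (-0.69), a coactivator of mitochondrial biogenesis, were among those with the smallest p. RRP12 (-0.63) and RRP9 (-0.62), of ribosomal RNA processing, fell too. PUS1 averaged 90.3 CPM in shRNH1 and 151 CPM in shControl, and PPRC1 averaged 179 CPM in shRNH1 and 288 CPM in shControl. Against this, the phosphatase gene DUSP2 rose (0.98; 31.4 CPM in shRNH1 and 15.96 CPM in shControl), as did TBRG4 (0.38), CBX3 (0.45), DCTPP1 (0.31) and AIMP2 (0.25). CDK4 (-0.07), NPM1 (-0.08) and MCM4 (0.01), further well-known members, did not pass. The number higher was 3 without shRNH1 replicate 1, without shRNH1 replicate 3 or without shControl replicate 2. Between 26 and 30 of the 57 genes were lower in each of the 16 settings, and with library size alone the median was -0.19 where that of all genes was 0.13. A related list of ribosome and MYC target genes was already known to be lower in these data, so the count is no independent support.

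The MYC-activated genes were then divided by the E-box in their promoter windows. Of 15 genes with an E-box, 4 fell and 3 rose, at a median of -0.07. Of 32 genes with a promoter in the table and no E-box, 19 fell and 2 rose, at a median of -0.40. Over all genes tested, 12.3% fell and 15.3% rose, at a median of 0.016. SRM (-0.60), the spermidine synthase, IMP4 (-0.52), UTP20 (-0.42) and HK2 (-0.36), hexokinase, were the genes with an E-box that fell. The difference between these groups was not tested.

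Of 23 other tested textbook targets, 11 fell and 3 rose (60.9% called, against 27.6% of all genes), with a median of -0.19. RRS1 (-1.06), a ribosome assembly factor, the cyclin gene CCND1 (-1.04) and ODC1 (-0.65), the rate-limiting enzyme of polyamine synthesis, fell, whereas the cell cycle factor gene E2F2 rose (0.68). CCND1 averaged 183 CPM in shRNH1 and 375.5 CPM in shControl. E2F1 (0.49) and TFRC (0.37), the transferrin receptor, also rose, so the cell cycle genes CCND1, E2F1 and E2F2 did not share one direction. With library size alone 6 of the 23 were higher, and 7 with the offset for level. Without shRNH1 replicate 2, 5 were higher.

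Of 17 tested genes known to be repressed by MYC, 8 rose, 3 fell and 6 did not pass (64.7% called, against 27.6% of all genes), with a median log2 fold change of 0.26. TXNIP (2.38), NDRG1 (1.57), GAS1 (0.96) and CEBPA (0.92) had the smallest p. The cyclin-dependent kinase inhibitor genes CDKN1A (0.46; 142 CPM in shRNH1 and 103 CPM in shControl) and CDKN1B (0.40) rose, while CDKN2B at -0.13 did not pass. GADD45A (-1.03), PDGFRB (-0.91) and KLF6 (-0.43) fell. TXNIP is also counted in the MLX branch and PDGFRB among fibroblast markers, and NDRG1 is a known hypoxia gene.

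**Figure D4:**
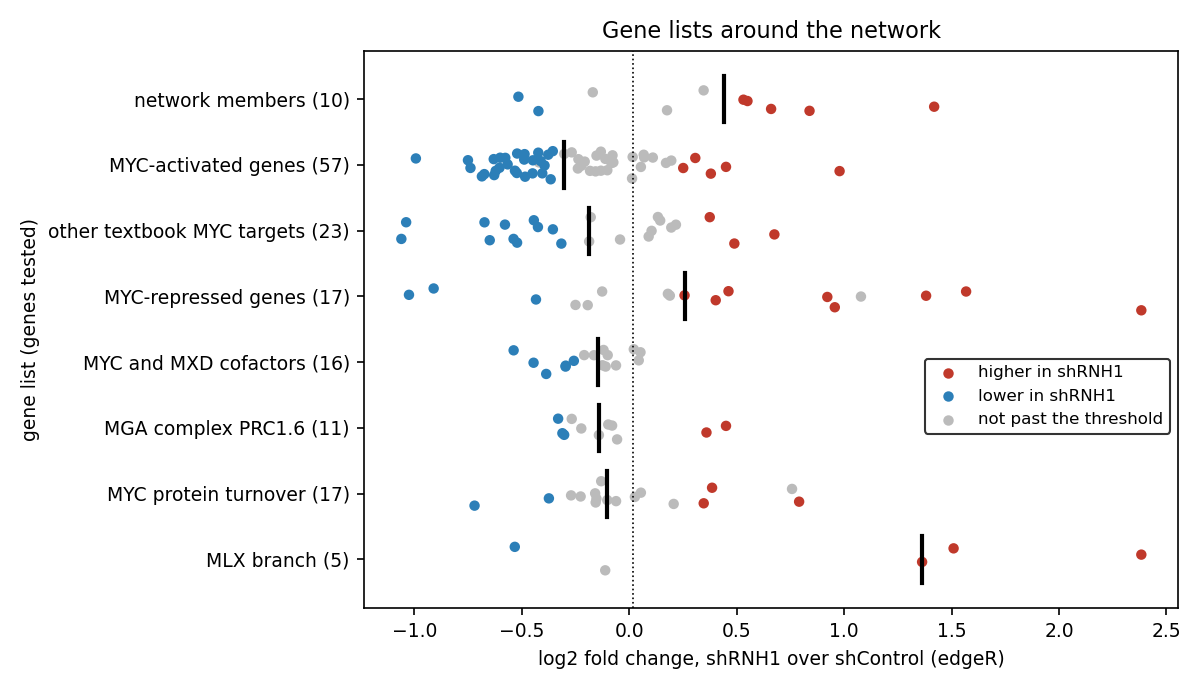
Log2 fold change of shRNH1 over shControl for every tested gene of 8 lists around the network; red genes rose, blue genes fell, grey genes did not pass, black bars are list medians and the dotted line is the median of all genes (0.016). MYC-activated genes centre at -0.30 and MYC-repressed genes at 0.26, and each list holds genes on both sides of the line.

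Cofactors through which the network acts on chromatin were lower or did not pass. Of 16 tested, 6 fell and 0 rose by edgeR (37.5% called, against 27.6% of all genes), with 0 higher at an unadjusted p below 0.05 and 0 higher by DESeq2 or limma-voom. EP400 (-0.54), of the TIP60 complex, ZBTB17 (-0.45), the MIZ1 protein through which MYC represses, and WDR5 (-0.30) fell. SIN3A (-0.12), SIN3B (0.04), HDAC1 (-0.10) and HDAC2 (0.02), the corepressors used by MXD proteins, did not pass. Under the offset for level only 2 cofactors were lower, with WDR5 at -0.18 not past the threshold. With library size alone, with the replicate number as a block or without shRNH1 replicate 3, 3 cofactors were lower, and WDR5 did not pass in any of these, nor without shControl replicate 1 (-0.28).

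In the Polycomb complex that holds MGA, 3 of 11 tested subunits fell and 2 rose (45.5% called, against 27.6% of all genes). L3MBTL2 (-0.33), RING1 (-0.31) and CBX1 (-0.30) fell, and TFDP2 (0.36) and CBX3 (0.45) rose, the last of which is also in the MYC-activated list. With library size alone 0 of the 11 were lower, and RING1 (-0.20) and L3MBTL2 (-0.22) did not pass. Without shRNH1 replicate 2 or without shControl replicate 1, 1 subunit was lower. L3MBTL2 was at -0.24 without shRNH1 replicate 2, and RING1 at -0.30 without shControl replicate 1 and at -0.27 without shRNH1 replicate 3, none of which passed.

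Regulators of MYC protein stability showed 3 rises and 2 falls among 17 tested, a share of 29.4% called beside 27.6% of all genes. With library size alone 5 rose. The nucleolar deubiquitinase gene USP36 fell (-0.72; 107 CPM in shRNH1 and 176 CPM in shControl), as did the kinase gene AURKA (-0.37). USP28 (0.39), a deubiquitinase of MYC, USP37 (0.35) and the kinase gene PIM1 (0.79; 35.8 CPM in shRNH1 and 20.7 CPM in shControl) rose. FBXW7, the ligase subunit that marks MYC for degradation, was at -0.27 and did not pass (edgeR adjusted p = 0.07405).

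A list of 11 noncoding RNAs held those of the MYC family loci and also MIR17HG, which does not lie at these loci. Of the 11, 6 were tested, of which 2 fell and 0 rose by edgeR. That is 33.3% called, near the 27.6% of all genes. Of the 2 that fell, only PVT1 lies at a MYC family locus. The count higher was also 0 at an unadjusted p below 0.05, by DESeq2 and by limma-voom. PVT1, the long noncoding RNA next to MYC, was lower at 87.8 CPM in shRNH1, against 120 CPM in shControl (-0.46; edgeR adjusted p = 0.00245). MIR17HG, a microRNA host gene that MYC activates, was lower at 16.5 CPM in shRNH1, against 27.8 CPM in shControl (-0.75; edgeR adjusted p = 4.16e-06). CASC19 (-0.20) and CASC8 (-0.81) did not pass.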

How the data were processed

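The deposited values are raw counts per Ensembl gene, 1 column per library, not normalised by the authors. HISAT2, StringTie, DESeq2 and GRCh38 are named per the submitters' processing notes. The sources used here do not give versions, the counter, its strand setting or the annotation release. Per the labels' protocols, poly(A) RNA was fragmented and copied with random primers.

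Counts were tested with edgeR 4.0.16 (R 4.3.3; quasi-likelihood test, TMM, filterByExpr by group, no covariate, Benjamini-Hochberg adjustment over 19682 genes, threshold 0.05) and the test was checked on simulated counts. Standard errors came from the F statistic. CPM use TMM. All 62700 of 62700 IDs had a name, which for some was the Ensembl ID itself and not a symbol. Positions and exon lengths came from GENCODE 29 (GRCh38, 58207 IDs), promoter sequences from RefSeq (GRCh38.p14). The named genes were RNASEH1, RNH1, all members, up to 4 called genes per list with the smallest p (6 for MYC-activated genes) and 3 genes most like MYC, MAX and MXD1; further list members are named only as examples, after their values were seen. Members and lists were chosen with earlier results of these data known. Alternatives used DESeq2 1.42.0, limma 3.58.1 and MASS 7.3.60.0.1. Replicates differed by more than sampling noise. Some genes that the rule covers are not reported here.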

Additional observations from a re-analysis of the deposited data

How the results depend on the processing

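Counts of calls and fold changes were recomputed in up to 16 alternative settings (15 for MYCN) and levels per length in 2. Of the recomputed levels per length, 24 stayed within the SD of their group and 16 moved beyond it. By a similar rule 175 list medians stayed and 32 moved. The E-box counts and likeness were not recomputed. No member changed direction, and MAX, MXD1, MXD3, MXD4 and MXI1 passed in all 16. With the offset for expression level 1 member was lower (MYC was lost) and 6 were higher. Library size alone also gave 6 higher, with 2 lower. A filter of CPM at least 1 in 3 libraries dropped MYCN. With library size alone the median of all genes was 0.13, beside 0.016 with TMM, with 4065 genes higher and 1433 lower (73.9% higher), beside 3006 and 2418 (55.4%); the cause was not tested. With each library left out in turn, MYC-activated genes higher numbered 3 to 6 and lower 26 to 29, and all genes called 4150 to 5210. The median of the MYC turnover list was -0.10, but 0.01 with library size alone. Replicate numbers are shared between groups, and deviations of same-numbered libraries correlated at 0.045, 0.056 and -0.049. With 3 libraries a group this cannot settle whether same-numbered libraries were prepared together, which the labels do not say. The replicate block gave 5094 genes (2938 higher, 2156 lower), 5 and 2 members and 4 and 27 MYC-activated genes. MYCN, at 7 to 33 counts per library, is limited by depth. The protein-coding setting and basic exon lengths were added after seeing the data.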
